A study of Mus musculus with 8 samples.

Results

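Axin2, Nkd1, Rnf43, Znrf3, Notum and Sp5 are genes that Wnt signalling switches on and most of whose products then hold that signalling back. Their histone H3K27 acetylation (H3K27ac), a mark of promoters and enhancers in use, was examined in mouse colon cancer organoids with and without GATA6. The members were the peaks of the deposited count table that overlap 1 window around each of the 6 genes: 73 peaks of the 22731 in the table, of which 28 lay in the Axin2 window, 13 at Nkd1, 7 at Rnf43, 17 at Znrf3 and 8 at Notum. The table holds no row in the Sp5 window, so Sp5 acetylation was not analysed here. The windows were chosen by gene identity, but with peak-level fold changes and calls of this knockout-against-control contrast already known. All fold changes and calls below are therefore a description of these loci and no test of them.

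The organoids were profiled by CUT&RUN. An antibody against the mark brings a nuclease to it, and the DNA cut free is sequenced. The Gata6KO group holds 3 H3K27ac libraries of genotype Gata6KO_AKP, and the Control group holds 3 of genotype AKP, each made from 500000 cells. The labels name C57Bl6 recipient mice for both groups. The labels do not spell out the abbreviation AKP. The sources used here do not say how Gata6 was deleted, whether the knockout is 1 clone or whether replicates came from separate cultures. Differences between groups may therefore include differences between lines, and the spread between replicates may be technical. H3K4me3 and IgG libraries of control organoids belong to the series and were not analysed here, so no background was subtracted. Acetylation at Gata6 and at markers of colon epithelium was not analysed here either.

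In canonical Wnt signalling, a destruction complex built on APC and AXIN proteins degrades beta-catenin, and ligand binding to Frizzled receptors stops that degradation. Beta-catenin then joins TCF/LEF proteins on DNA and turns on target genes. Several targets encode brakes: AXIN2 is a scaffold of the destruction complex, NKD1 binds Dishevelled, RNF43 and ZNRF3 are ubiquitin ligases that remove Frizzled from the cell surface, and NOTUM is a secreted enzyme that removes the lipid from Wnt ligands. SP5 is a zinc-finger transcription factor induced by the pathway. In Apc-mutant intestinal tumours these genes are commonly used as readouts of an active pathway.

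The windows are intervals on mm9 set by position. The table pairs no peak with a gene, and the only gene table used, from RefSeq, is on a later assembly (GRCm38.p6), so peaks are named by their order within a window and not as promoters or enhancers. In that gene table, the nearest protein-coding neighbours are Cep112 and Rgs9 for Axin2, Brd7 and Snx20 for Nkd1, Hsf5 and Supt4a for Rnf43, Kremen1 and Xbp1 for Znrf3, Myadml2 and Aspscr1 for Notum, and Myo3b and Erich2 for Sp5. Which of these neighbours a peak belongs to was not determined.

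Library totals were 5495414 to 6196455 reads in peaks in Gata6KO and 5141856 to 7026388 in Control libraries. Levels are CPM, a count scaled to the library's reads in peaks and edgeR's TMM factor. A peak was called where edgeR's quasi-likelihood test gave a Benjamini-Hochberg adjusted p under 0.05 over the whole table. Across the table the median log2 fold change was -0.01, and it was 0.01 on both chromosomes that hold the analysed windows, 8 and 11.

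Acetylation summed over a window was higher in all 3 Gata6KO libraries than in all 3 Control libraries at each of the 5 windows, by amounts that differed widely. The Nkd1 sum was 1218, 1207 and 1262 CPM in Gata6KO libraries, against 659.6, 661 and 649 CPM in Control libraries, a ratio of means of 1.87. In the Axin2 window, which was set to include flanks of the gene, the sums were 1279, 1225 and 1201 CPM in Gata6KO libraries. They were 814, 859.8 and 866 CPM in Control libraries, a ratio of 1.46. The Notum sums were 437, 421 and 473 CPM in Gata6KO libraries and 314, 343 and 357 CPM in Control libraries, a ratio of 1.31. The windows of the paired ubiquitin ligases differed least. Rnf43 held 492, 489 and 519.97 CPM in Gata6KO libraries and 438, 422 and 435 CPM in Control libraries, a ratio of 1.16. Znrf3 held 634, 638 and 602 CPM in Gata6KO libraries and 562, 588 and 543 CPM in Control libraries, a ratio of 1.11. With 3 libraries against 3, an exact permutation test cannot give less than p = 0.1, and none was made on windows chosen with this contrast known.

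**Figure D1:**
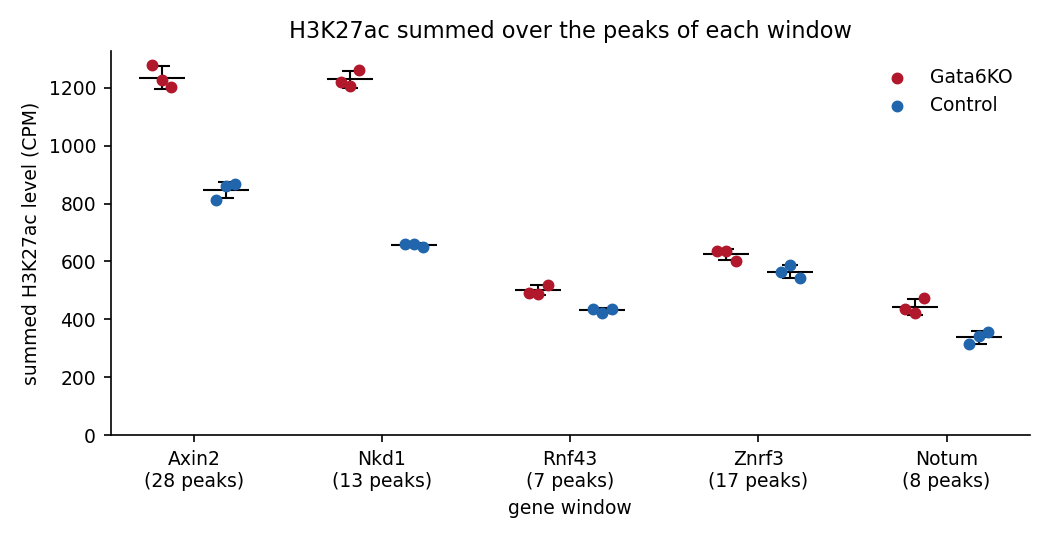
H3K27ac level summed over the peaks of each window (CPM, y axis) for the 5 gene windows (x axis). Points are libraries, Gata6KO in red and Control in blue, bars are the mean ± SD of 3 libraries, and every Gata6KO point lies above every Control point of its window.

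Of the 73 peaks, 43 were called higher in Gata6KO, 1 was called lower and 29 were not called. Over the whole table, 11.6% of peaks were called higher and 10.2% lower. In 44 of the 73 peaks all 3 Gata6KO libraries lay above all 3 Control libraries, and in 1 all lay below, against 17.5% and 16.2% of all peaks. The calls were unevenly shared: 13 of 13 peaks were called higher at Nkd1, 21 of 28 at Axin2, 5 of 17 at Znrf3, 2 of 7 at Rnf43 and 2 of 8 at Notum. The median log2 fold change was 0.83 at Nkd1, 0.67 at Axin2, 0.27 at Notum, 0.11 at Rnf43 and 0.07 at Znrf3. Ratios of at least 2-fold among peaks called higher were found at 5 Nkd1 and 5 Axin2 peaks, 10 of the 73 members, against 2.53% of all peaks. The other windows held none, which at that share says little about so few peaks.

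As a description of how fold change went with level, Spearman's rho between log2 fold change and mean level was -0.16 over all 22731 peaks and -0.16 over the 73 members, which share libraries and neighbourhoods. Within the Axin2 window it was -0.58 over 28 peaks, and within the Nkd1 window -0.38 over 13. With offsets that follow the mean count of a peak (trended offsets), the table's rho was 0.04, that of Axin2 -0.36 and that of Nkd1 -0.15. The medians under those offsets were 0.79 at Nkd1, 0.68 at Axin2, 0.31 at Notum, 0.13 at Rnf43 and 0.09 at Znrf3.

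**Figure D2:**
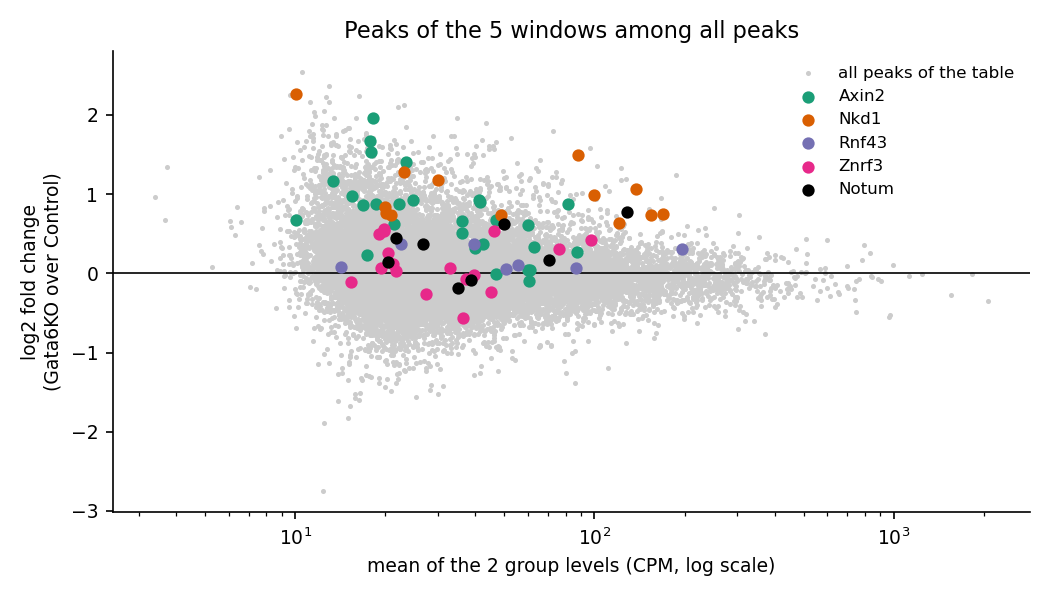
Log2 fold change of Gata6KO over Control (y axis) against the mean of the group levels (CPM, log x axis) for every peak of the table in grey and for the peaks of the 5 windows in colour. The Nkd1 peaks all lie above 0, including those of high level, while the medians of the Rnf43 and Znrf3 peaks are 0.11 and 0.07.

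NKD1 is an inducible antagonist that acts on Dishevelled inside the cell. Its window ran on chromosome 8 from 90.96 to 91.13 Mb. Peaks covered 52.6% of its 170 kb, the largest share of the 5 windows, though close to the 51.7% at Notum. The Nkd1 peaks were wide: 4 of the 13 measured at least 10 kb, the widest 14568 bp, against a median of 2690 bp over the table. Their control density was low, with a median of 6.30 CPM per kb of peak, against a median of 10.7 CPM per kb over all peaks. As summed level over summed width it was 7.34 CPM per kb. RefSeq gives 1 start for Nkd1, and the 250 bases before it are shown with those of Axin2 and Sp5, as the starts of the genes whose windows gained most and of the member that holds matches to the TCF/LEF core. They are on GRCm38.p6, not the peaks' mm9, so they were not placed among the peaks. Nkd1 lies at chr8:88527383-88527632, Axin2 at chr11:108920099-108920348 and Sp5 at chr2:70474673-70474922, all on the plus strand. Capitals mark CTTTGA, the core that TCF/LEF proteins read.
Nkd1: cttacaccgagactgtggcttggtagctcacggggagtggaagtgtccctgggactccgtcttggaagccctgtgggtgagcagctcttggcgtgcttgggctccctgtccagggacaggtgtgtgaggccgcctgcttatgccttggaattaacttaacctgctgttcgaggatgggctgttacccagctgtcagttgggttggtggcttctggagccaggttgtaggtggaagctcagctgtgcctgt
Axin2: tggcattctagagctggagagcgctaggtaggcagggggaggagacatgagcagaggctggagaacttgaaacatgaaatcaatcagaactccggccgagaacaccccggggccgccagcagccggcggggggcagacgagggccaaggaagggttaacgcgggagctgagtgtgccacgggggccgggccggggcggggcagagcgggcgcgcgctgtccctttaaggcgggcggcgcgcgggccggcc
Sp5: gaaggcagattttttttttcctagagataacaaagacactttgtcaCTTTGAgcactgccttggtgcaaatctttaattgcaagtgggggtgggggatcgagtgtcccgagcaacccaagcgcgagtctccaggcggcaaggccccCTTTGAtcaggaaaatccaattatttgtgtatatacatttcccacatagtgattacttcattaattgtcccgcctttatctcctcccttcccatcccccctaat

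CTTTGA, searched on both strands, was found at no place in the Nkd1, Axin2 or either of the Rnf43 stretches, and at 2 places in that of Sp5, the member with no peak in the table. It occurs in 13.8% of the 32851 promoters of RefSeq's table over the same 250 bases. Of the GATA letters AGATAA and TGATAA, present in 16.6% of all promoters, 2 copies of AGATAA lay in the Sp5 stretch and none in the stretches of Nkd1, Axin2 or Rnf43. Promoters of Znrf3 and Notum were not used here. The forms AGATAG and TGATAG were not searched, and both occur in an Rnf43 stretch, so absence covers only the forms searched. A match is a run of letters, and its absence covers only this window.

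All 13 Nkd1 peaks were called higher, and at each the 3 Gata6KO libraries lay above the 3 Control libraries. Ratios ran from 1.55-fold at peak 8 to 4.84-fold at peak 3, a top value that depends on the scaling: with trended offsets the log2 fold change of peak 3 was 1.47, below the 1.52 of peak 4. Peak 12 (13523 bp) had the highest level of the window, with 216, 214 and 204 CPM in Gata6KO libraries and 124, 136 and 120 CPM in Control libraries, a log2 fold change of 0.74 ± 0.07 (SE, as for every log2 fold change below). Peak 13, next to it, had 172, 204 and 203 CPM in Gata6KO libraries and 119, 104 and 124 CPM in Control libraries, with a log2 fold change of 0.73 ± 0.07. At peak 1, the first of the window, levels were 185, 179.6 and 194 CPM in Gata6KO libraries, against 84.9, 87.2 and 94.8 CPM in Control libraries, and the log2 fold change was 1.06 ± 0.08. These 3 strongest peaks therefore rose by 1.67 to 2.09-fold, and none of the groups overlapped.

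The most marked changes of the Nkd1 window lay between its strong peaks. Peak 4, from 91006090 to 91013447, had 133, 126 and 131 CPM in Gata6KO libraries and 45.6, 45.6 and 47.8 CPM in Control libraries, a log2 fold change of 1.49 ± 0.10. Peak 5 had 30.1, 30.1 and 38.5 CPM in Gata6KO libraries and 13.9, 8.37 and 17.8 CPM in Control libraries, a log2 fold change of 1.28 ± 0.19. In both the lowest Gata6KO library exceeded the highest Control library by more than the range within Control. Peak 3, the narrowest at 1195 bp, held 116, 88 and 86 reads in Gata6KO libraries against 30, 10 and 22 reads in Control libraries. Its log2 fold change of 2.26 ± 0.39 rests on few control reads and was 1.47 with trended offsets, still called.

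Of the total Nkd1 gain of 573 CPM, peak 1 held 16.97%, peak 12 14.9%, peak 4 14.6%, peak 13 13.5% and peak 7 11.4%, so the gain was spread along the window. Peaks outside a window are the nearest rows of the table analysed here, which may not hold every peak. The first one before the Nkd1 window, at 73.6 kb, was not called, with 15.4 ± 4.29 CPM in Gata6KO and 18.2 ± 0.771 CPM in Control libraries (SD, n = 3 each). The next row of the table after the window lies 2269.9 kb away and was not called, with a log2 fold change of -0.01. Regions in between were not analysed here. All 13 calls were kept in each of 16 alternative fits (other scalings, filters or tools, or a library left out) at the same threshold. Among these, the fit without a filter repeats the main fit and could lose no call, since every peak passed the filter.

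**Figure D3:**
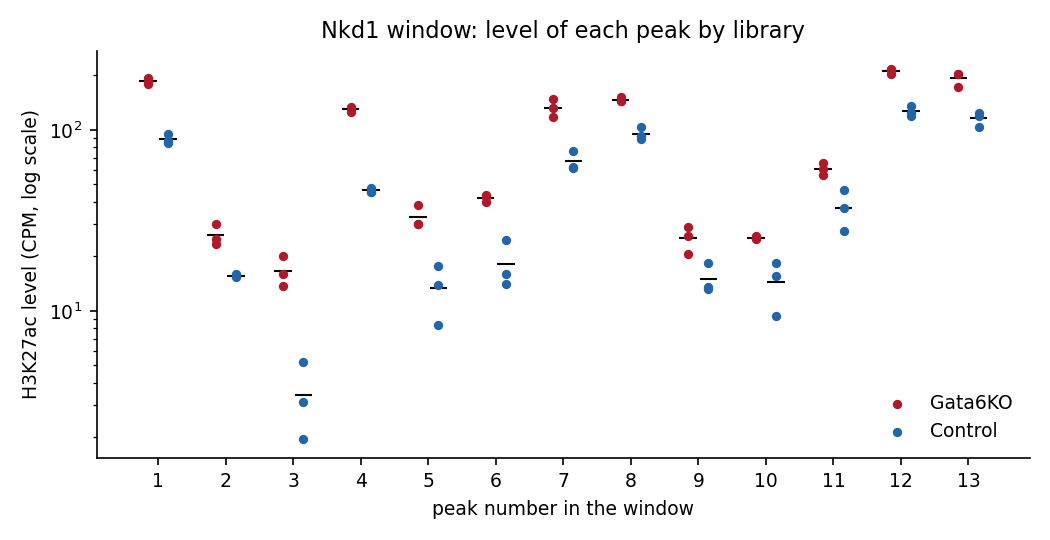
H3K27ac level (CPM, log y axis) of each of the 13 peaks of the Nkd1 window in order along the chromosome (x axis). Points are libraries, Gata6KO in red and Control in blue, and lines are means of 3. At every peak the red points lie above the blue ones.

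AXIN2 is the feedback scaffold most often used to read out the pathway. Its window was set as the gene with flanks, and which peaks lie at the gene itself was not determined. A gain in the window therefore need not be a gain at Axin2. The window was the widest, on chromosome 11 from 108.45 to 109.06 Mb, and 16.1% of its length was covered by 28 peaks of 1627 to 7057 bp. Of these, 21 were called higher and none lower. The gains were not even along the window. With the stretch limits set after the values were seen, the first 7 peaks and the last 15 held 7 and 13 of the higher calls, and the 6 peaks between them held 1.

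The 6 middle peaks, from 108766138 to 108813962, summed to 343, 349 and 334 CPM in Gata6KO libraries, against 304, 329 and 338 CPM in Control libraries, a ratio of 1.06 with overlapping groups. The first 7 peaks summed to 282, 263 and 256 CPM in Gata6KO libraries, against 137, 153 and 139.9 CPM in Control libraries, a ratio of 1.86. The last 15 summed to 654, 613 and 612 CPM in Gata6KO libraries, against 373, 378 and 388 CPM in Control libraries, a ratio of 1.65. The middle peaks thus held 27.7% of the window's level in Gata6KO and 38.2% in Control libraries. Their control density, as summed level over summed width, was 10.2 CPM per kb, while that of the first 7 was 6.52 and that of the last 15 was 8.53. The median of single peaks was 9.21 CPM per kb in the middle, 5.67 in the first 7 and 8.76 in the last 15. Over the table that median was 10.7 CPM per kb. In Gata6KO libraries the densities of these stretches were 10.8 CPM per kb for the middle peaks, 12.1 for the first 7 and 14.1 for the last 15.

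Among the middle peaks, peaks 9 to 12 had log2 fold changes of -0.10 to 0.04 and were not called. Peak 9 had 43.9, 54.8 and 41.7 CPM in Gata6KO libraries and 38.3, 49.7 and 52.4 CPM in Control libraries, so the groups overlapped throughout. Peak 8, which had the highest mean level of the window over both groups, had 104, 88.2 and 94.3 CPM in Gata6KO libraries and 74.8, 76.7 and 86.5 CPM in Control libraries. Its log2 fold change of 0.26 ± 0.10 was called, but not without Gata6KO replicate 1 (0.20) or 3 (0.27), nor without Control replicate 1 (0.23) or 2 (0.24).

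The largest changes of the Axin2 window fell on peaks that were weak in Control. Control level is the denominator of the fold change, so ranking by fold change itself favours such peaks. Peak 21, from 108908396 to 108911349, had 30.6, 24.3 and 31.7 CPM in Gata6KO libraries and 6.61, 8.18 and 7.45 CPM in Control libraries. Its log2 fold change of 1.96 ± 0.23 was the largest on chromosome 11 in the main fit. Its control density of 2.51 CPM per kb was among the lowest 0.0264% of all peaks. Peak 20, its neighbour, had 18.8, 30.8 and 31.4 CPM in Gata6KO libraries and 10.8, 8.96 and 6.01 CPM in Control libraries, a log2 fold change of 1.67 ± 0.23. Peak 2, near the other end, had 34.8, 22.1 and 23.1 CPM in Gata6KO libraries and 8.70, 9.74 and 9.17 CPM in Control libraries, a log2 fold change of 1.54 ± 0.23. At these 3 peaks the groups lay far apart, although the Gata6KO libraries themselves varied, with replicate 1 the lowest at peak 20 and the highest at peak 2. With trended offsets the log2 fold changes were smaller, 1.76 at peak 21, 1.46 at peak 20 and 1.39 at peak 2, all still called.

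A strong peak also rose near the far end. Peak 27, from 109038699 to 109044787, had 111, 102 and 104 CPM in Gata6KO libraries and 55.3, 52.6 and 63.9 CPM in Control libraries, a log2 fold change of 0.88 ± 0.10. It held 12.4% of the window's gain of 388 CPM, the largest share of any Axin2 peak. Peak 26 had 76.4, 75.5 and 59.0 CPM in Gata6KO libraries and 57.4, 49.1 and 59.9 CPM in Control libraries, so the groups overlapped. Its log2 fold change of 0.34 ± 0.11 was called, but not without Gata6KO replicate 1 (0.27) or 2 (0.28) or Control replicate 2 (0.26). Of the 21 higher calls, 15 were kept in all 16 alternative fits, and the window had 15 to 20 higher calls when a library was left out. Without Control replicate 2 these included peak 17 (0.42), which is not among the 21.

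Outside the Axin2 window the nearest peaks were not called. The one 55.4 kb before it had a log2 fold change of 0.44 ± 0.23, with overlapping groups of 20.2 ± 4.92 CPM in Gata6KO and 14.9 ± 2.77 CPM in Control libraries (SD, n = 3 each). The one 147.5 kb after it had 96.6 ± 1.82 CPM in Gata6KO and 96.0 ± 9.03 CPM in Control libraries.

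**Figure D4:**
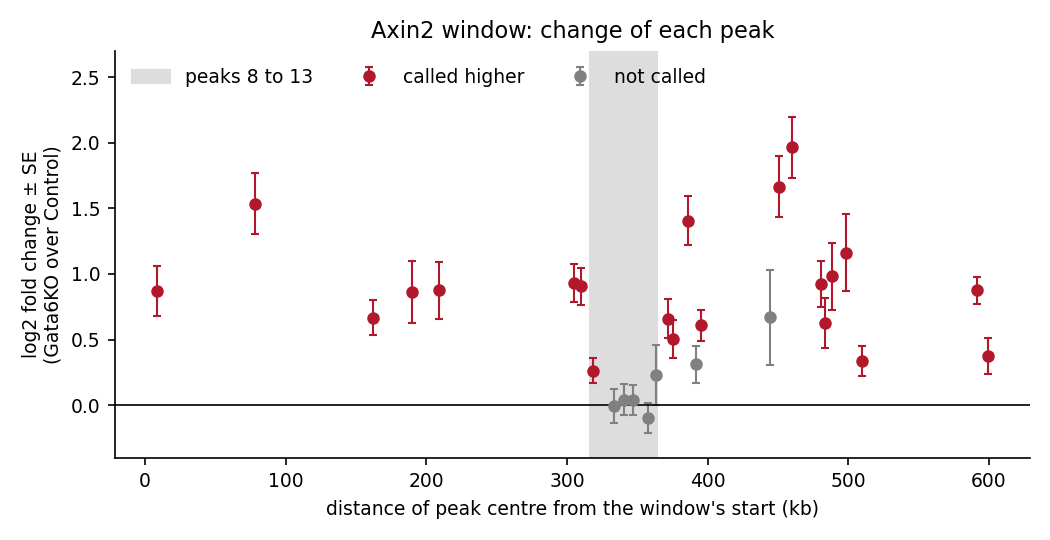
Log2 fold change ± SE of Gata6KO over Control (y axis) for the 28 peaks of the Axin2 window by the distance of the peak's centre from the window's start (kb, x axis). Red points were called higher, grey points were not called, and the shaded band covers peaks 8 to 13. Changes near 0 sit in the band, with peaks of up to 1.96 on its right and up to 1.54 on its left.

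RNF43 and ZNRF3 act together on Frizzled receptors, and their windows on chromosome 11 had the highest control densities of the 5. The Rnf43 window, from 87.42 to 87.58 Mb, was dominated by peak 6, which was 14902 bp wide. Its levels were 228, 197 and 228 CPM in Gata6KO libraries and 183, 164 and 179.6 CPM in Control libraries, a log2 fold change of 0.31 ± 0.07. It was called higher in all 16 alternative fits and held 61.0% of the window's gain of 68.9 CPM.

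The remaining Rnf43 peaks added less in CPM. Peak 1 had 41.8, 47.2 and 45.4 CPM in Gata6KO libraries and 35.1, 34.3 and 34.4 CPM in Control libraries. Its log2 fold change of 0.37 ± 0.14 was called, but not without Control replicate 1 (0.39), 2 (0.37) or 3 (0.37) or Gata6KO replicate 2 (0.33) or 3 (0.36), which left 1 call of 2 in the window. Peak 2 had a similar log2 fold change of 0.38 ± 0.18 and was not called, with 28.2, 27.03 and 21.5 CPM in Gata6KO libraries and 17.4, 21.6 and 20.0 CPM in Control libraries. The strong peaks 5 and 7 had log2 fold changes of 0.07 ± 0.10 and 0.11 ± 0.12, and their groups overlapped. Peak 5 had 84.3, 86.3 and 94.9 CPM in Gata6KO libraries and 92.2, 84.5 and 77.6 CPM in Control libraries, and peak 7 had 53.6, 59.5 and 60.3 CPM in Gata6KO libraries and 52.5, 51.0 and 57.0 CPM in Control libraries.

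The nearest peak before the Rnf43 window, at 12.1 kb, had a log2 fold change of 0.20 ± 0.23, and the nearest after it, at 220.3 kb, one of 0.50 ± 0.33. Neither was called.

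The Znrf3 window, from 5.12 to 5.40 Mb, was the only one with calls in both directions. Its strongest peak, peak 14 (7073 bp), had 123, 104 and 108 CPM in Gata6KO libraries and 78.6, 86.5 and 85.9 CPM in Control libraries, a log2 fold change of 0.42 ± 0.09. Peak 13 beside it had 51.2, 61.3 and 50.3 CPM in Gata6KO libraries and 41.4, 37.8 and 33.8 CPM in Control libraries, a log2 fold change of 0.53 ± 0.13. These neighbours were the higher calls of this window kept in all 16 alternative fits.

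Peak 6, from 5204529 to 5207743, was the one member called lower. It had 27.7, 29.9 and 30.1 CPM in Gata6KO libraries and 47.3, 48.5 and 34.1 CPM in Control libraries, a log2 fold change of -0.56 ± 0.15. The groups did not overlap, although Control replicate 3 lay close to the Gata6KO range, and the call was kept in all 16 alternative fits. Peak 5 lies next to it on one side and went the other way, with 25.8, 25.0 and 19.9 CPM in Gata6KO libraries and 18.4, 15.2 and 14.3 CPM in Control libraries and a log2 fold change of 0.56 ± 0.20. Its call was lost without Gata6KO replicate 1 (0.49) or 2 (0.51) or Control replicate 2 (0.53) or 3 (0.48).

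Peak 4 of the Znrf3 window had 83.4, 86.3 and 83.5 CPM in Gata6KO libraries and 68.9, 68.4 and 67.5 CPM in Control libraries, a called log2 fold change of 0.31 ± 0.10 that was not called without Gata6KO replicate 2 (0.29) or Control replicate 3 (0.30). Peak 15 had 20.9, 23.6 and 25.7 CPM in Gata6KO libraries and 18.1, 15.6 and 14.9 CPM in Control libraries, a called log2 fold change of 0.53 ± 0.20. Its call was lost without Gata6KO replicate 2 (0.53) or 3 (0.46) or Control replicate 2 (0.51) or 3 (0.47), and with trended offsets (0.51). Higher calls at Znrf3 thus numbered 2 without Gata6KO replicate 2 or Control replicate 3, in place of 5. Peak 9, not called at -0.26, was called lower without Gata6KO replicate 1 (-0.66): that library had 36.9 CPM, against 19.2 and 18.4 CPM in the other Gata6KO libraries and 26.8 to 32.9 CPM in Control libraries. The peaks just outside the window, 9.71 kb before and 20.3 kb after, had log2 fold changes of -0.13 and 0.09 and were not called.

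NOTUM, the secreted Wnt deacylase, had the smallest window, from 120.48 to 120.55 Mb on chromosome 11. Peak 8 at its edge was the strongest, with 162, 159 and 165 CPM in Gata6KO libraries and 89.4, 94.6 and 99.96 CPM in Control libraries, a log2 fold change of 0.77 ± 0.08. It held 63.9% of the window's gain of 105 CPM. Peak 8 runs from 120543441 to 120551474 and so extends past the window's end, and without the peaks that cross a window edge the log2 ratio of the Notum sums was 0.27 in place of 0.39. Peak 4, from 120516554 to 120523187, had 58.0, 51.2 and 71.3 CPM in Gata6KO libraries and 35.5, 42.5 and 39.8 CPM in Control libraries, a log2 fold change of 0.62 ± 0.13.

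Peaks 4 and 8 were the 2 higher calls of the Notum window, and both were kept in all 16 alternative fits. Peak 5 had 26.8, 25.0 and 23.1 CPM in Gata6KO libraries and 15.8, 18.9 and 20.3 CPM in Control libraries. Its groups lay apart, but its log2 fold change of 0.44 ± 0.19 was not called. Peak 3 was not called at 0.17 ± 0.11, with 75.6, 64.9 and 83.1 CPM in Gata6KO libraries and 63.7, 59.98 and 74.2 CPM in Control libraries. The peak 2.54 kb after the window was stronger than any member, with 412 ± 11.3 CPM in Gata6KO and 357 ± 21.3 CPM in Control libraries (SD, n = 3 each), and was called higher at 0.21 ± 0.05. The peak 4.58 kb before the window had all Gata6KO below all Control libraries but was not called, at -0.19 ± 0.11.

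**Figure D5:**
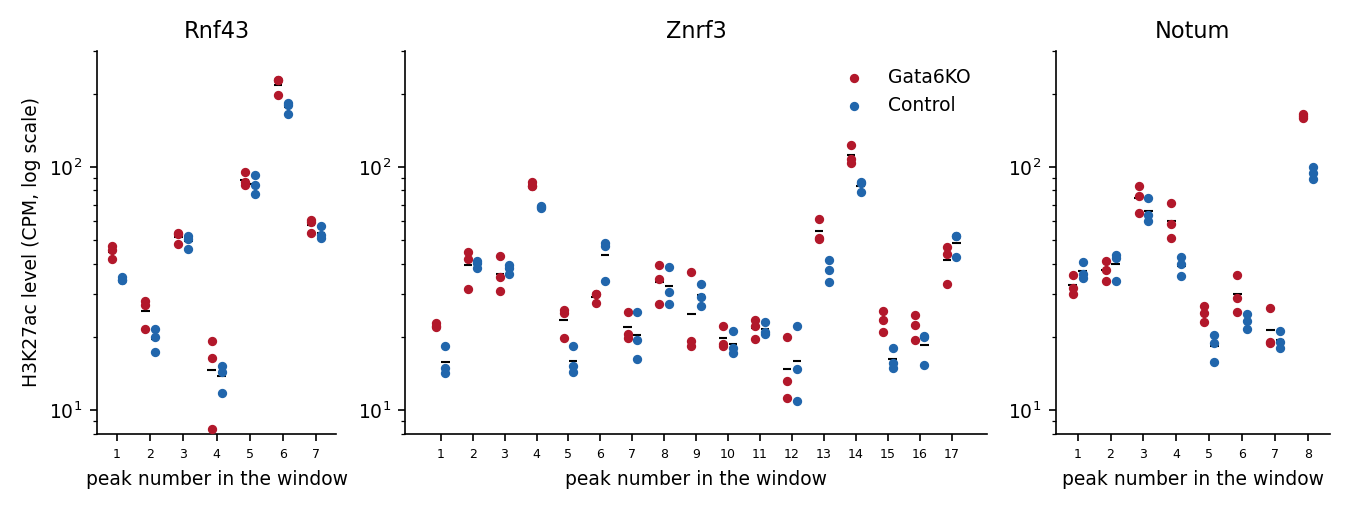
H3K27ac level (CPM, log y axis) of each peak of the Rnf43, Znrf3 and Notum windows in order along the chromosome (x axis). Points are libraries, Gata6KO in red and Control in blue, and lines are means of 3. All red points lie above all blue ones at 2 of 7 Rnf43, 6 of 17 Znrf3 and 4 of 8 Notum peaks, among them Notum peaks 4 and 8. Over the whole table this held for 17.5% of peaks. At Znrf3 peak 6 all red points lie below, as at 16.2% of all peaks.

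Per kb of peak, the 5 windows were more alike in Gata6KO than in Control libraries. In Gata6KO libraries the order was Nkd1 (13.7 ± 0.325 CPM per kb), Rnf43 (13.1 ± 0.444), Axin2 (12.6 ± 0.408), Notum (12.3 ± 0.732) and Znrf3 (11.8 ± 0.368), with a ratio of 1.17 between the ends. The ranges of the 3 libraries overlapped between each pair of neighbours in that order. In Control libraries it was Rnf43 (11.3 ± 0.210), Znrf3 (10.6 ± 0.425), Notum (9.35 ± 0.604), Axin2 (8.62 ± 0.291) and Nkd1 (7.34 ± 0.0765 CPM per kb), with a ratio of 1.54 (SD, n = 3 for each value). There, the ranges overlapped between Rnf43 and Znrf3 and between Notum and Axin2, but not between Znrf3 and Notum or between Axin2 and Nkd1. Nkd1 was thus last in Control and first in Gata6KO libraries, a change of order that follows from the same fold changes and is no separate evidence.

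SP5 is induced by the pathway and regulates other targets at their promoters. The table analysed here gives no level in the Sp5 window, from 70.25 to 70.36 Mb on chromosome 2. The nearest rows of this table, which may not be the nearest peaks, lie 513 kb before the window, with 15.03 ± 2.99 CPM in Gata6KO and 14.5 ± 0.611 CPM in Control libraries, and 138.9 kb after it, with 23.3 ± 4.57 CPM in Gata6KO and 22.5 ± 1.30 CPM in Control libraries (SD, n = 3 each). Neither was called, and both had log2 fold changes of 0.05.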

How the data were processed

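For 6 H3K27ac CUT&RUN libraries, the authors deposited 1 table of unnormalized counts and lengths of peaks. The submitters' processing notes name the build mm9 and the tools Bowtie, Picard, SAMtools, SEACR and bedtools without versions or roles. The sources used here do not say how peaks were merged or reads counted. Between 82.8% and 88.9% of counts per library were even, and whether both mates of a pair were counted is not stated, so counts may not be independent fragments. Log2 CPM correlated at 0.949 to 0.962 within groups and at 0.901 to 0.908 between them (Pearson's r across peaks).

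All 22731 peaks passed edgeR's filter, so the alternative fit without a filter repeats the main fit. edgeR 4.0.16 in R 4.3.3 was run on all peaks: TMM scaling, quasi-likelihood tests of group with no covariate, and Benjamini-Hochberg adjustment over the table. SE came from the F statistic. The fit was also run on simulated counts drawn independently of each other. The deposited counts may not be independent fragments, so that run does not vouch for the calls here. This scaling removes a shift common to the whole table. Window sums add TMM-scaled CPM over member peaks. Alternatives were DESeq2 1.42.0, other scalings and filters, trended offsets (loess span 0.3), halved counts, a replicate block, no chromosome 5, each library left out, an adjusted p under 0.01, and peaks wholly inside a window.

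The members and lists were chosen with earlier results of these data known. Library values are given for the 3 peaks of highest mean level and the 3 of largest absolute change per window, with Axin2 peak 9 and Znrf3 peak 9 added after their values were seen. Other Wnt pathway genes and tissue markers were not analysed here, since no mm9 annotation was used. Promoter sequences are RefSeq's (GRCm38.p6, 5 entries for 4 of the 6 genes).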

Additional observations from a re-analysis of the deposited data

How the results depend on the processing

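Across the alternatives, all window sums stayed higher in Gata6KO than in Control libraries. The log2 ratio of the Nkd1 sums was 0.90 and moved beyond the spread between libraries with trended offsets, to 0.93, and that of Notum, 0.39, with only peaks wholly inside the window, to 0.27. Leaving out each library gave 0.89 to 0.92 at Nkd1, 0.52 to 0.57 at Axin2, 0.34 to 0.43 at Notum, 0.19 to 0.23 at Rnf43 and 0.12 to 0.18 at Znrf3. It gave 37 to 40 members called higher, in place of 43, and 1 to 2 called lower, in place of 1, with 2 without Gata6KO replicate 1. The 27 named peaks gave 432 values, but only those of the 22 peaks called in the main fit could lose a call. Among these called peaks no value changed sign. In all, 26 values lost the call, at Axin2 peaks 8 and 26, Rnf43 peak 1 and Znrf3 peaks 4, 5 and 15. Of these, Axin2 peak 8 (0.24), Rnf43 peak 1 (0.35) and Znrf3 peak 15 (0.51) were also lost without chromosome 5. The labels share replicate numbers but name no pairing. Deviations of same-numbered libraries correlated at 0.00595 to 0.0679, and 2 of 6 libraries were closest to their own number. With the number as a replicate block, 43 members were called higher and 1 lower, and 2704 of all peaks were called higher and 2409 lower, in place of 2640 and 2320. With 3 libraries per group and this depth, small changes at weak peaks such as Rnf43 peak 4 (log2 fold change 0.08 ± 0.27) were not detectable.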
